A study of Ovis aries with 95 samples.

Results

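CTSB, CTSD, CTSF, CTSS and LGMN encode cathepsins B, D, F and S and legumain, proteases that work inside the lysosome. Their mRNA levels were described over 4 brain regions and 6 ages of the sheep. The genes were chosen by name, so that a gene probe was taken where the gene name in the array files, or the gene given by its accession or description, was one of the 5. This took 8 of 15008 gene probes and 5 of 14346 genes. Of all gene probes, 13352 were named by accession alone, and each such name was counted as a gene. Genes not named here, and further probes of the 5, may be among them. CTSB and CTSS had 1 probe each, and CTSD, CTSF and LGMN had 2 each.

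RNA of cortex, brainstem, hippocampus and hypothalamus was measured on 95 one-colour arrays, each hybridized with the RNA of 1 sample. The animals were fetuses without treatment at 80, 100, 120, 130 and 145 d of gestation and lambs 1 d after birth. Each region had 4 arrays per age, except hippocampus at 100 d with 3, and the 100 d and 145 d labels each stand for a short range of days. Every age group held a pair of twins that the labels do not mark. The paper's methods describe 4 animals per age, with the 4 regions dissected from each brain, so regions of an age share animals. The labels do not say which arrays came from the same animal. The main tests therefore did not pair regions, and p-values measure the spread between these arrays. No breed, genotype or allele is given in the labels, all groups were untreated, and the mothers of the fetuses were not in labour.

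Lysosomal proteases digest proteins that reach the lysosome by endocytosis, phagocytosis or autophagy. Cathepsin D is an aspartic protease, cathepsins B, F and S are cysteine proteases related to papain, and legumain is a cysteine protease that cuts after asparagine and processes several cathepsins into their mature forms. In the brain, cathepsin D is abundant in neurons and its loss causes a neuronal storage disease. Cathepsin S is made mainly by microglia and other antigen-presenting cells, where it trims the invariant chain of MHC class II molecules.

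The probes decide what a level can mean, and the pairs of CTSD and CTSF are shown because they differ by a shift of only 1 base. All are 60 bases long and are given 5′ to 3′ as the array files list them. Capitals mark the 59 bases that the probes of a pair share. CTSS has a single probe and is in lower case.
CTSD probe 1: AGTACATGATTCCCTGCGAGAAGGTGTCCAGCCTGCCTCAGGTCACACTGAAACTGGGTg
CTSD probe 2: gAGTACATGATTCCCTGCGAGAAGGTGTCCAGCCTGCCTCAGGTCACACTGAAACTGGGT
CTSF probe 1: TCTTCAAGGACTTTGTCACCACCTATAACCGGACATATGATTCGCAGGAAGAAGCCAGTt
CTSF probe 2: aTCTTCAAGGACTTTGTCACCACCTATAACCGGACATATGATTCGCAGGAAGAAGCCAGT
CTSS probe: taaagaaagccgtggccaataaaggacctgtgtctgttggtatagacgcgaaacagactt
The array files name no genome build, so no genome position is given.

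A level below is the log2 of the background-corrected and quantile normalized intensity, averaged over the probes of a gene. Levels were compared between arrays and never between genes, because probes differ in brightness. Of 760 probe values of the 5 genes, 9 were not well above background, of which 8 belonged to CTSF and 1 to CTSB, and none was saturated. Between 73.9 and 83.9% of the gene spots of a cortex array were well above background, 72.0 to 88.5% on brainstem arrays, 59.5 to 85.1% on those of hippocampus and 75.3 to 86.8% on those of hypothalamus. Region labels were compared with marker genes. HOXA5, a gene of the hindbrain, was well above background on 24 of 24 brainstem arrays and on 0 of 24 in cortex. Of 5 hypothalamus markers with a probe, 4 had their highest mean in hypothalamus, among them GHRH, the growth hormone-releasing hormone (8.19 against 6.50 to 6.54 elsewhere), whereas SST, the somatostatin gene, had its lowest mean there (13.20, against 14.57 in hippocampus). None of 8 marker genes of cortex and hippocampus was named on the array, so those 2 labels were not checked. Of 5 pituitary markers, CGA was well above background on 24 of 24 hypothalamus arrays and 4 of 24 in brainstem, PRL averaged 9.13 in brainstem and 6.69 to 7.16 elsewhere, FSHB passed on 10 of 24 hypothalamus arrays, POU1F1 on at most 2 arrays of a region, and LHB had its lowest mean in hypothalamus (9.56). The paper's methods count slides for each region, and slides were numbered here within a region. Hippocampus and hypothalamus each had arrays on 4 slides. Cortex and brainstem each filled 3 slides of 8 arrays, so those slides held no other region. Each comparison of their levels with another region is thus also a comparison between slides. Whether hippocampus and hypothalamus shared a slide was not checked, so that region and slide may not be separable there either. Some spots and arrays stood apart, namely a dim area on the array of brainstem 1 d after birth replicate 4 and slide 4 of hippocampus, and calls, directions and sizes that turn on them are given with and without them.

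The probes of a pair tracked each other in cortex and came apart for some genes elsewhere. CTSD in hippocampus tracked too (SD 0.20, Pearson r = 0.95), and LGMN in brainstem had no array more than 1 apart. In cortex the difference between probes had an SD of 0.05 for CTSD, 0.08 for CTSF and 0.24 for LGMN, and on no array were they more than 1 unit apart. For CTSF they were more than 1 apart on 10 of 23 arrays in hippocampus and 13 of 24 in hypothalamus, by up to 3.46 and 3.31, although the printed probes share 59 of 60 bases. For LGMN this was so on 3 and 6 arrays, and for CTSD on 2 arrays in hypothalamus and 1 in brainstem, the array with the dim area described below. Levels of CTSF outside cortex are uncertain for this reason. With probe 1 alone, the mean of hypothalamus over all ages differed from that of cortex by -0.06 (limma, adjusted p = 0.831), against -0.55 (adjusted p = 0.00156) for the average of both probes.

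**Figure D1:**
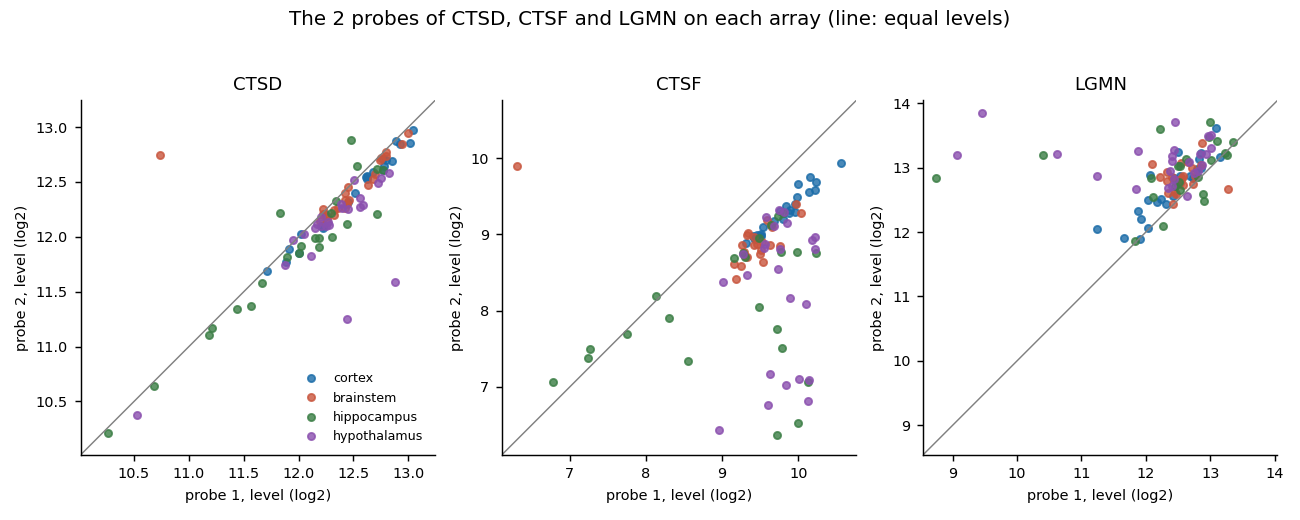
Level (log2) of probe 2 against probe 1 on each array for the genes with a pair of probes, coloured by region, with the line of equal levels. Cortex points follow the line at a near constant offset for CTSD and CTSF, while for LGMN probe 1 minus probe 2 runs there from -0.82 to 0.02. For CTSF points of hippocampus and hypothalamus fall up to 3.46 below probe 1, and for LGMN up to 4.39 above it. The brainstem points far from the line for CTSD and CTSF are the array with the dim area, where CTSF differs by -3.59.

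**Figure D2:**
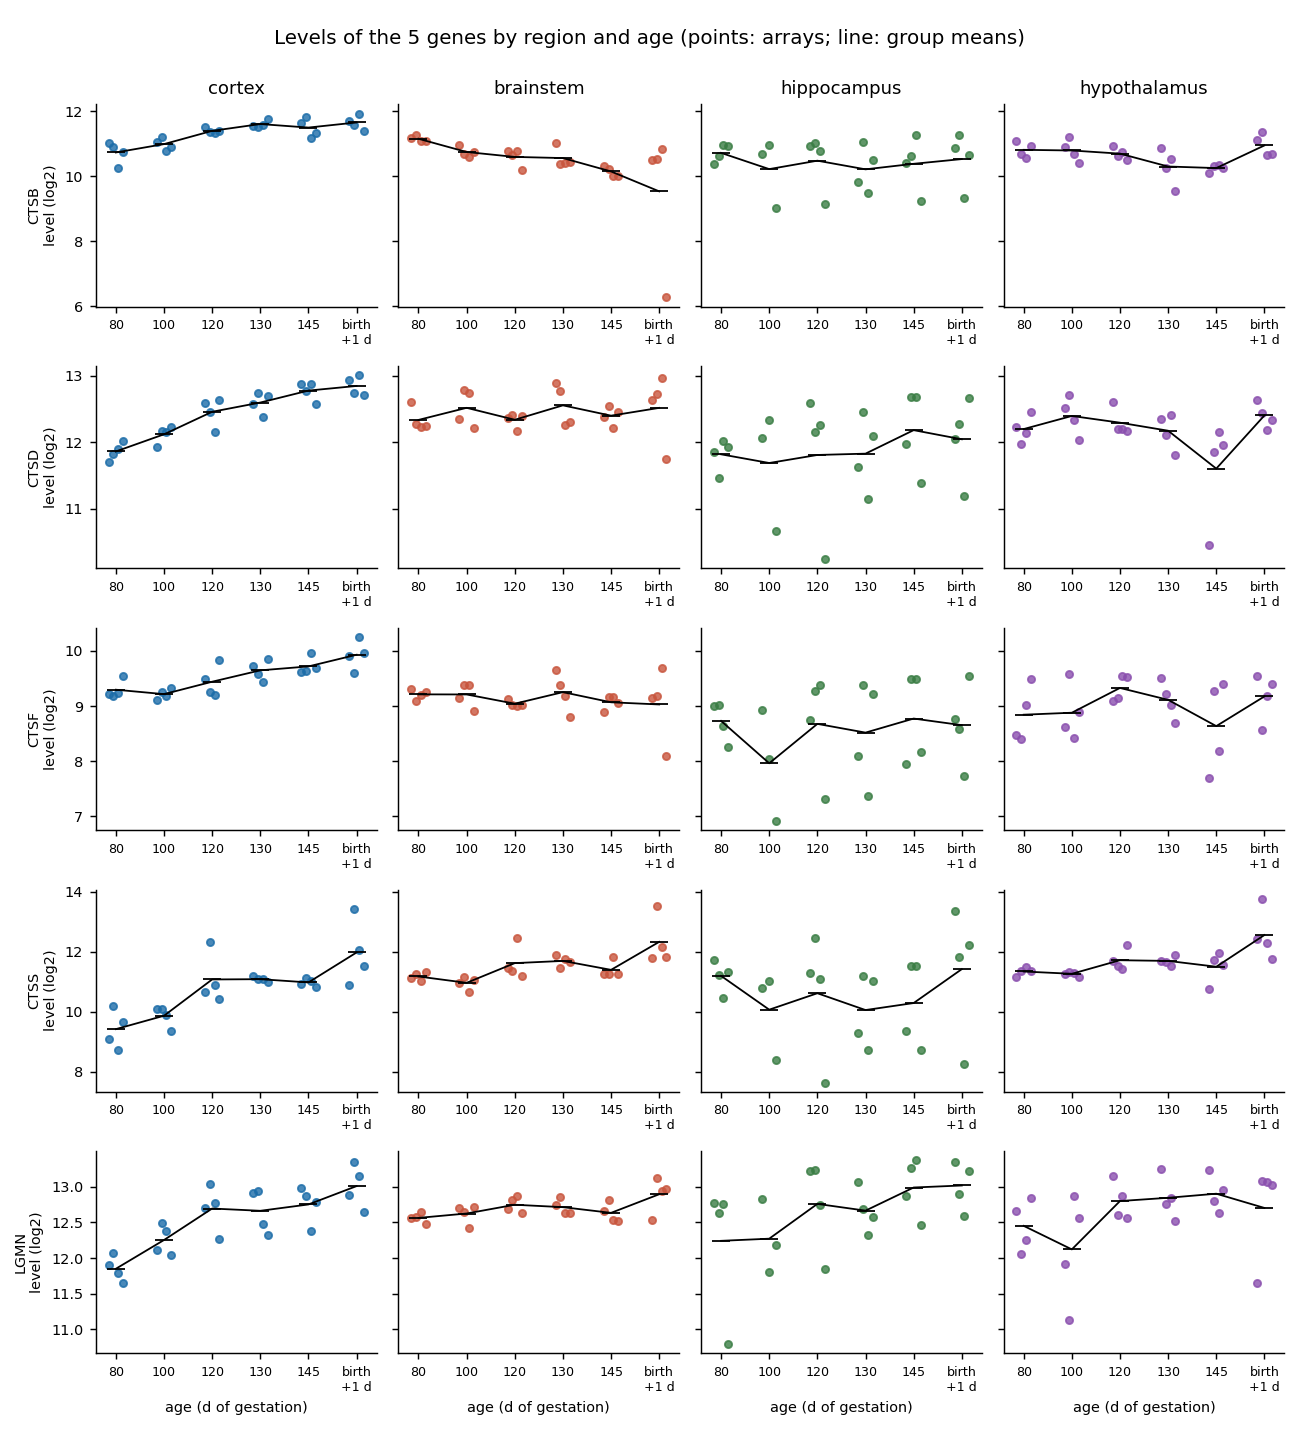
Levels (log2) of the 5 genes, 1 row per gene and 1 column per region, against age with evenly spaced ages; each point is an array and the line joins group means. In cortex the means of all 5 genes were higher at birth than at 80 d, CTSS in hippocampus runs from 7.63 to 13.37, and CTSB in brainstem has 1 array at 6.28.

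In cortex all 5 genes changed with age. An F test (limma) of whether any later age differed from 80 d called 5 of 5, where it called 46.0% of all genes tested. Changes to birth end at the lambs of 1 d after birth. From 80 d to 145 d 5 of 5 rose against 41.6% of genes called in either direction (19.2% higher), and from 80 d to 1 d after birth 5 of 5 rose against 45.0% (20.2% higher). No gene of the 5 was called by limma between neighbouring ages in any region (8 of 80 such tests at an unadjusted p under 0.05, 6 of them in cortex), where 1.93% of all tests over genes, regions and steps were called. From 145 d to birth none was called either (6 of 20 tests at an unadjusted p under 0.05), where the share of all genes called was 0.250% for cortex, 4.88% for brainstem, 0.00766% for hippocampus and 2.41% for hypothalamus. With slide as a fixed factor in the fit of each region, CTSS was called from 145 d to birth in brainstem (0.95, adjusted p = 0.0484) and hypothalamus (1.06, adjusted p = 0.0473). The same fits called CTSB from 145 d to birth in hypothalamus (0.70, adjusted p = 0.0401) and, between neighbouring ages, CTSD from 100 d to 120 d in cortex (0.34, adjusted p = 0.0484). The largest change from 145 d to birth in cortex was that of CTSS, 1.00 ± 0.42 on the log2 scale (adjusted p = 0.52).

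CTSD, the aspartic protease, gave 11.70, 11.82, 11.90 and 12.03 on the 4 cortex arrays of 80 d. At 145 d its levels were 12.88, 12.77, 12.88 and 12.58, and 1 d after birth 12.94, 12.74, 13.01 and 12.71. All arrays of both late ages lay above all arrays of 80 d. The share of all genes whose groups did not overlap is not given, here or below, so this describes the arrays and sets no gene apart. The change to 145 d was 0.92 ± 0.11 (SE, limma), or 1.89-fold (adjusted p = 8.75e-07), and the change to birth was 0.99 ± 0.11, or 1.98-fold (adjusted p = 2.69e-07). The age means were 11.86, 12.12, 12.46, 12.60, 12.78 and 12.85 in order of age, with SDs of 0.13 to 0.22 (n = 4 each), so that every mean lay above the one before it.

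CTSB, a cysteine protease with both endopeptidase and exopeptidase activity, read 11.03, 10.91, 10.24 and 10.75 in cortex at 80 d. One day after birth it read 11.71, 11.58, 11.93 and 11.41. The groups did not overlap, and the change of 0.92 ± 0.15 (1.90-fold) had an adjusted p of 3.77e-05 (limma). At 145 d, with 11.65, 11.82, 11.19 and 11.33, the change was 0.77 ± 0.15 (adjusted p = 0.000329). The mean of CTSB was already 11.40 ± 0.08 (SD, n = 4) at 120 d and 11.50 ± 0.29 (n = 4) at 145 d.

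CTSF, another papain-like cathepsin, had the smallest change of the 5 in cortex. Its levels were 9.22, 9.19, 9.24 and 9.54 at 80 d and 9.61, 9.63, 9.95 and 9.68 at 145 d. Lambs gave 9.90, 9.60, 10.25 and 9.96. Both late groups lay above the 80 d arrays. The change was 0.42 ± 0.14 to 145 d (1.34-fold, adjusted p = 0.0178) and 0.63 ± 0.14 to birth (1.55-fold, adjusted p = 0.000748). The change to 145 d lost its call without replicate 2 of 80 d (0.39, adjusted p = 0.0505) and without replicate 3 of 145 d (0.34, adjusted p = 0.0701).

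LGMN, the asparagine-specific protease, read 11.90, 12.07, 11.79 and 11.65 in cortex at 80 d and 12.98, 12.88, 12.37 and 12.78 at 145 d. In lambs it read 12.89, 13.35, 13.16 and 12.64. All late arrays were above all 80 d arrays. LGMN rose by 0.90 ± 0.18 to 145 d (1.87-fold, adjusted p = 0.000372) and by 1.16 ± 0.18 to birth (2.23-fold, adjusted p = 2.05e-05). Its mean stood at 12.70 ± 0.32 (SD, n = 4) at 120 d, 12.66 ± 0.31 at 130 d and 12.75 ± 0.26 at 145 d, which lie closer together than the spread within each group. At 130 d replicate 2 rests on 1 probe, since an outlier flag left out the spot of the other.

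CTSS, the cathepsin of antigen-presenting cells, had the largest change of the 5 in cortex. It read 9.09, 10.18, 8.73 and 9.65 at 80 d and 10.91, 11.13, 11.03 and 10.82 at 145 d. In lambs it read 10.88, 13.43, 12.07 and 11.52. The late arrays were all above the 80 d arrays, and the lambs ranged over more than 2 units, with replicate 2 far above replicate 1. CTSS rose by 1.56 ± 0.42 to 145 d (2.95-fold, adjusted p = 0.00456) and by 2.56 ± 0.42 to birth (5.89-fold, adjusted p = 3.31e-05). Over 37 other settings, single arrays left out among them, its change to birth ran from 2.07 to 2.92 and was called each time. Within slides, the 80 d to birth change in cortex was above 0 on 3 of 3 slides for each of the 5 genes, with ranges of 0.74 to 1.33 for CTSB, 0.83 to 1.17 for CTSD, 0.36 to 0.70 for CTSF, 1.25 to 4.69 for CTSS and 0.91 to 1.56 for LGMN.

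**Figure D3:**
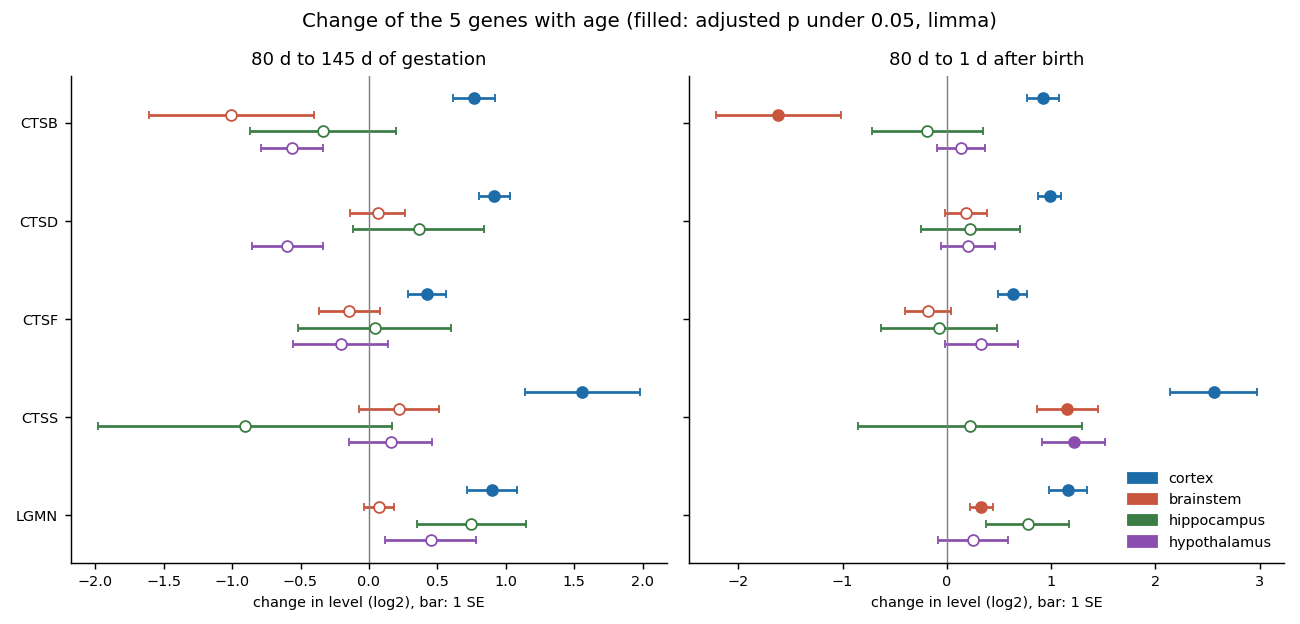
Change in level (log2) of each gene from 80 d to 145 d of gestation and from 80 d to 1 d after birth, by region; bars are 1 SE from limma and filled points had an adjusted p under 0.05. All 5 cortex points are filled in both panels, CTSS is filled at birth in 3 regions, and CTSB at birth is above 0 in cortex (0.92) and below 0 in brainstem (-1.62).

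In brainstem the F test called CTSS alone, 1 of 5 where it called 40.5% of all genes (adjusted p = 0.0104). From 80 d to 145 d 0 of 5 were called, where 37.4% of genes were, and 0 of 5 had an unadjusted p under 0.05. From 80 d to birth 3 of 5 were called against 42.6% of genes: CTSS and LGMN rose (21.2% of genes rose) and CTSB fell (21.4% fell). CTSS gave 11.11, 11.24, 11.02 and 11.31 at 80 d and 11.80, 13.51, 12.16 and 11.83 in lambs. The groups did not overlap and replicate 2 of the lambs was highest. The rise was 1.16 ± 0.29 (2.23-fold, adjusted p = 0.00344, limma), and it was above 0 on 3 of 3 slides, from 0.63 to 2.49. At 145 d CTSS read 11.24, 11.26, 11.83 and 11.24, within reach of the 80 d arrays, with a change of 0.22 ± 0.29 (adjusted p = 0.601).

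CTSB in brainstem read 11.18, 11.27, 11.07 and 11.10 at 80 d and 10.33, 10.23, 10.02 and 10.02 at 145 d. In lambs it read 10.49, 10.55, 10.84 and 6.28. The value of 6.28 was not well above background. It lies in a dim area of 2553 gene spots on that array, where spots had a median deviation of -1.24 against 0.34 outside it, and the area also holds probe 1 of CTSD and probe 1 of CTSF. With all spots kept, the change to birth was -1.62 ± 0.60 (adjusted p = 0.0352), the change to 145 d was -1.01 ± 0.60 (adjusted p = 0.204) and the F test gave an adjusted p of 0.278. With the dim area left out on that array, the same 3 tests gave -0.53 (adjusted p = 0.00843), -1.01 (adjusted p = 1.06e-05) and an adjusted p of 0.000345, so that the fall at 145 d was called and the size of the fall at birth was less. All arrays of 145 d, and the 3 lambs outside the dim area, lay below the 4 arrays of 80 d. Within slides the change to birth was -0.74, -0.53 and -2.54, and the last of these, on slide 3, holds the dim spot and is -0.26 without it. With all spots kept, the call at birth was lost with slide as a fixed factor (-1.45, adjusted p = 0.0629) and with the processed signal of the scanner software (adjusted p = 0.0619).

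LGMN in brainstem read 12.56, 12.57, 12.65 and 12.48 at 80 d and 12.53, 13.13, 12.95 and 12.98 in lambs. Replicate 1 of the lambs lay among the 80 d arrays and the others above them. The rise was 0.33 ± 0.11 (1.26-fold, adjusted p = 0.0181). It rested on probe 1, which gave 0.54 alone (adjusted p = 0.00468), while probe 2 alone gave 0.12 (adjusted p = 0.517). CTSD changed by 0.18 ± 0.20 (adjusted p = 0.493), or by 0.43 (adjusted p = 0.0194) with the dim area left out, and CTSF by -0.18 ± 0.22 (adjusted p = 0.531), or by 0.27 (adjusted p = 0.191) with the dim area left out.

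In hypothalamus the F test called CTSS, 1 of 5 where it called 15.6% of genes, with an adjusted p of 0.0366. That call held in 13 of 24 fits with 1 array left out (adjusted p 0.00898 to 0.0806). CTSS gave 11.16, 11.34, 11.50 and 11.34 at 80 d and 12.41, 13.76, 12.30 and 11.74 in lambs, so that the groups did not overlap. The rise to birth was 1.22 ± 0.30 (2.32-fold, adjusted p = 0.00732), the 1 call of 5 where 17.5% of genes were called and 8.35% rose, and it was above 0 on 3 of 3 slides, from 0.52 to 2.42. CTSB read 11.09, 10.68, 10.55 and 10.94 at 80 d, 10.11, 10.32, 10.34 and 10.25 at 145 d, and 11.11, 11.37, 10.65 and 10.67 in lambs. Its 145 d arrays were thus below both other groups, with a change of -0.56 ± 0.23 from 80 d that did not pass (adjusted p = 0.114). From 80 d to 145 d none of the 5 was called, where 13.6% of genes were. CTSD at 145 d read 10.45, 11.85, 12.15 and 11.96, where replicate 1 stood apart, and its change of -0.60 ± 0.26 did not pass either (adjusted p = 0.149). LGMN changed by 0.25 to birth (adjusted p = 0.667), with replicate 1 of the lambs at 11.65 and the others at 13.02 to 13.08, and its probes differed in direction, with -0.14 for probe 1 alone (adjusted p = 0.927) and 0.64 for probe 2 alone (adjusted p = 0.0292).

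In hippocampus none of the 5 genes was called in the F test or in a contrast, where the F test called 2.97% of genes, the contrast of 80 d with 145 d 4.29% and that with birth 5.43%. No gene of the 5 had an unadjusted p under 0.05 from 80 d to 145 d or to birth. The lowest, for LGMN, were 0.075 to 145 d (change 0.75 ± 0.40) and 0.0654 to birth (0.78 ± 0.40). CTSS ranged from 7.63 to 13.37 over the 23 arrays. In lambs it read 13.37, 11.83, 8.24 and 12.23, and at 80 d 11.74, 11.23, 10.46 and 11.33, so that replicate 3 of the lambs was below all of 80 d and the others above. Slide 4 of this region, scanned apart from the rest, held 8 arrays and none of 80 d. Its CTSS levels averaged 9.50 against 11.04, 11.50 and 11.27 on slides 1 to 3, and its CTSB levels 9.77 against 10.49, 11.05 and 11.05. Its share of spots well above background had a median of 71.2%, against 83.2%, 76.3% and 73.9% on slides 1 to 3, and its part in the levels was not tested. Without slide 4 the change of CTSS to birth was 1.41 (adjusted p = 0.345), and within slides 1 and 2, which held both ages, it was 1.37 and 1.88.

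Whether the change from 80 d to birth differed between regions was tested over all 95 arrays (limma), without pairing regions that share animals. This test called 1 of 5, CTSB (adjusted p = 0.0177), and 12% of all genes. CTSB rose in cortex and fell in brainstem, a difference of -2.54 ± 0.62 (adjusted p = 0.00311), where 11.1% of genes were called. It was the 1 call among 30 tests of a gene in a pair of regions. With the dim area left out the difference was -1.45 ± 0.46 (adjusted p = 0.0295) and the test over the 4 regions gave an adjusted p of 0.0968. That test was called in 94 of 95 fits with 1 array left out and was lost without brainstem 1 d after birth replicate 4 (adjusted p = 0.0994), the array with the dim area. The change of CTSS, which was largest in cortex, was not shown to differ between regions (adjusted p = 0.264), nor was that of CTSD, CTSF or LGMN (adjusted p = 0.402, 0.586 and 0.292).

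The same test on the change from 80 d to 145 d called none of the 5, where 10.7% of genes were called. The adjusted p was 0.0592 for CTSD and 0.188 for CTSB, and with the dim area left out 0.0434 and 0.0175. Without hippocampus slide 4 it was 0.000432 for CTSD and 0.0584 for CTSB, and the test on the change to birth then gave 0.00189 for CTSB and called no other gene of the 5. Of 30 such tests in pairs of regions 1 was called, CTSD between cortex and hypothalamus (-1.51 ± 0.43, adjusted p = 0.0249), where 3.98% of genes were called. That difference fell short without hypothalamus 145 d replicate 1 (-1.13, adjusted p = 0.162), which is the array at 10.45 for CTSD, without hypothalamus 80 d replicate 4 (-1.43, adjusted p = 0.0572) and without cortex 145 d replicate 1 (-1.48, adjusted p = 0.0509). For CTSB the difference between cortex and brainstem was -1.77 ± 0.62 (adjusted p = 0.0521), and with the dim area left out it had an adjusted p of 0.00341.

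Averaged over the 6 ages, CTSB was highest in cortex at 11.31, followed by hypothalamus at 10.64, brainstem at 10.46 and hippocampus at 10.43. Cortex differed from each other region (limma, adjusted p = 0.00123 against hypothalamus, 4.1e-05 against brainstem and 3.83e-05 against hippocampus). The difference from hypothalamus was lost with slide as a random block (adjusted p = 0.0738). The neighbours below cortex were not told apart, with adjusted p of 0.437 between hypothalamus and brainstem and 0.901 between brainstem and hippocampus. CTSF was also highest in cortex, at 9.54, then brainstem at 9.14, hypothalamus at 9.00 and hippocampus at 8.55. Its neighbours brainstem and hypothalamus were not told apart (adjusted p = 0.455), while brainstem was below cortex (-0.41 ± 0.15, adjusted p = 0.0168) and hypothalamus above hippocampus (0.44 ± 0.15, adjusted p = 0.0123). The first of these was lost with the processed signal (adjusted p = 0.0769) and with probe 2 alone (0.113), and the second without hippocampus slide 4 (0.23, adjusted p = 0.207) and with probe 2 alone (0.22, adjusted p = 0.372). With probe 2 alone hypothalamus was below brainstem (-0.67, adjusted p = 0.00368), and with probe 1 alone hippocampus and brainstem were not told apart (adjusted p = 0.251). Without slide 4, CTSB in hippocampus lay above brainstem by 0.34 (adjusted p = 0.113) and below cortex (-0.51, adjusted p = 0.0174).

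CTSD averaged 12.44 in both cortex and brainstem, 12.18 in hypothalamus and 11.90 in hippocampus. Hippocampus was below cortex (-0.55 ± 0.12, adjusted p = 0.000174) and below brainstem (-0.55, adjusted p = 0.000186). With slide as a random block neither passed (adjusted p = 0.0681 and 0.0708). Hypothalamus was not told apart from its neighbours in this order, cortex and brainstem above it (adjusted p = 0.0672 and 0.0701) and hippocampus below it (0.0554), and the last of these passed in 16 of 95 fits with 1 array left out (adjusted p 0.0136 to 0.188). Without hippocampus slide 4, hypothalamus was below both cortex (adjusted p = 0.00694) and brainstem (adjusted p = 0.00741) and 0.01 above hippocampus (adjusted p = 0.973), and hippocampus was below cortex by less (-0.27, adjusted p = 0.0218). With the dim area left out, hypothalamus was below brainstem (-0.31, adjusted p = 0.0292) and above hippocampus (0.28, adjusted p = 0.0466). CTSS was highest in hypothalamus at 11.67 and brainstem at 11.53, which were not told apart (adjusted p = 0.66). It was lower in cortex at 10.73 and hippocampus at 10.60, which were not told apart either (adjusted p = 0.708). The CTSS differences that passed were all lost with slide as a random block (adjusted p 0.0731 to 0.155). LGMN averaged 12.70, 12.66, 12.64 and 12.54 in brainstem, hippocampus, hypothalamus and cortex, and none of its 6 pairs was called. With the processed signal cortex was below brainstem, hippocampus and hypothalamus, by 0.28, 0.53 and 0.60 (adjusted p = 0.017, 1.21e-05 and 1.06e-06), and with the brightest probe below hippocampus by 0.25 (adjusted p = 0.019) and hypothalamus by 0.43 (adjusted p = 5.65e-05).

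In all, 14 of 30 tests of a gene in a pair of regions passed. The count was 3 of 5 between cortex and brainstem (52.4% of all genes called), 3 between cortex and hippocampus (51.5%), 3 between cortex and hypothalamus (47.7%), 3 between brainstem and hippocampus (47.5%), 2 between hippocampus and hypothalamus (46.2%) and 0 between brainstem and hypothalamus (44.6%). With slide as a random block 3 of 30 passed, CTSB in cortex against brainstem and against hippocampus, and CTSF in cortex against hippocampus. The share of all genes called under that setting is not given. For CTSS the order changed without hippocampus slide 4, where hippocampus lay above cortex by 0.54 (adjusted p = 0.02) and was not told apart from brainstem (adjusted p = 0.273) or hypothalamus (adjusted p = 0.102). At 80 d, cortex had the lowest mean CTSS of the 4 regions, 9.41 ± 0.63 (SD, n = 4), with all 4 of its arrays below all 12 arrays of the other regions at that age.

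CTSS was highest on 1 array of each region in lambs, namely replicate 2 in cortex, brainstem and hypothalamus (13.43, 13.51 and 13.76) and replicate 1 in hippocampus (13.37). At 120 d 1 array also led in each region, at 12.33 in cortex replicate 2, 12.47 in brainstem replicate 3, 12.45 in hippocampus replicate 2 and 12.23 in hypothalamus replicate 4. That hypothalamus array was the only one of its region on slide 4 and was scanned apart from the others. Its levels cannot be told apart from its slide and scan. Whether the arrays with the highest CTSS share an animal is not in the labels and was not tested. Deviations of same-numbered lamb arrays from their group means, over genes, had a mean correlation of 0.35 between cortex and hypothalamus. It was 0.28 between cortex and brainstem and 0.21 between brainstem and hypothalamus. Pairs with hippocampus gave -0.07 to 0.02. The array with the highest CTSS also had the highest PSMB8, a subunit of the immunoproteasome, and the highest ADORA3, an adenosine receptor gene, in 4 of 4 regions at both ages.

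In lambs, PSMB8 read 7.71, 10.11, 8.80 and 8.10 in cortex and 8.24, 10.62, 9.13 and 8.32 in hypothalamus. Replicate 2 stood above the others in each, as it did for CTSS. B2M, the light chain of MHC class I, was highest on the same array in 4 of 4 regions at 120 d and in 3 of the 3 where it was measured on that array in lambs. LGMN was highest on that array in 4 of 4 regions in lambs and 3 of 4 at 120 d, whereas CTSD and CTSF were highest on it in none. Some leads of LGMN were narrow, at 13.08 against 13.07 in hypothalamus of lambs and 13.23 against 13.22 in hippocampus at 120 d. CTSB was highest on the array with the highest CTSS in 1 region in lambs and 2 at 120 d. HBB, a haemoglobin gene of red blood cells, was highest on it in 4 regions at 120 d and 0 in lambs, and TTR, the transthyretin gene of choroid plexus, in 0 at both ages. ITGB2, an integrin gene of leukocytes, was highest on it in 4 regions in lambs and 3 at 120 d. Of the microglia markers, ITGAM was highest on it in 3 regions in lambs and 1 at 120 d, and CD14 in 1 at each age. The arrays were picked by their CTSS level, so these are descriptions without a test. The share of all genes that were highest on these arrays is not given. Regions of an age share animals, so counts over regions are not independent.

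**Figure D4:**
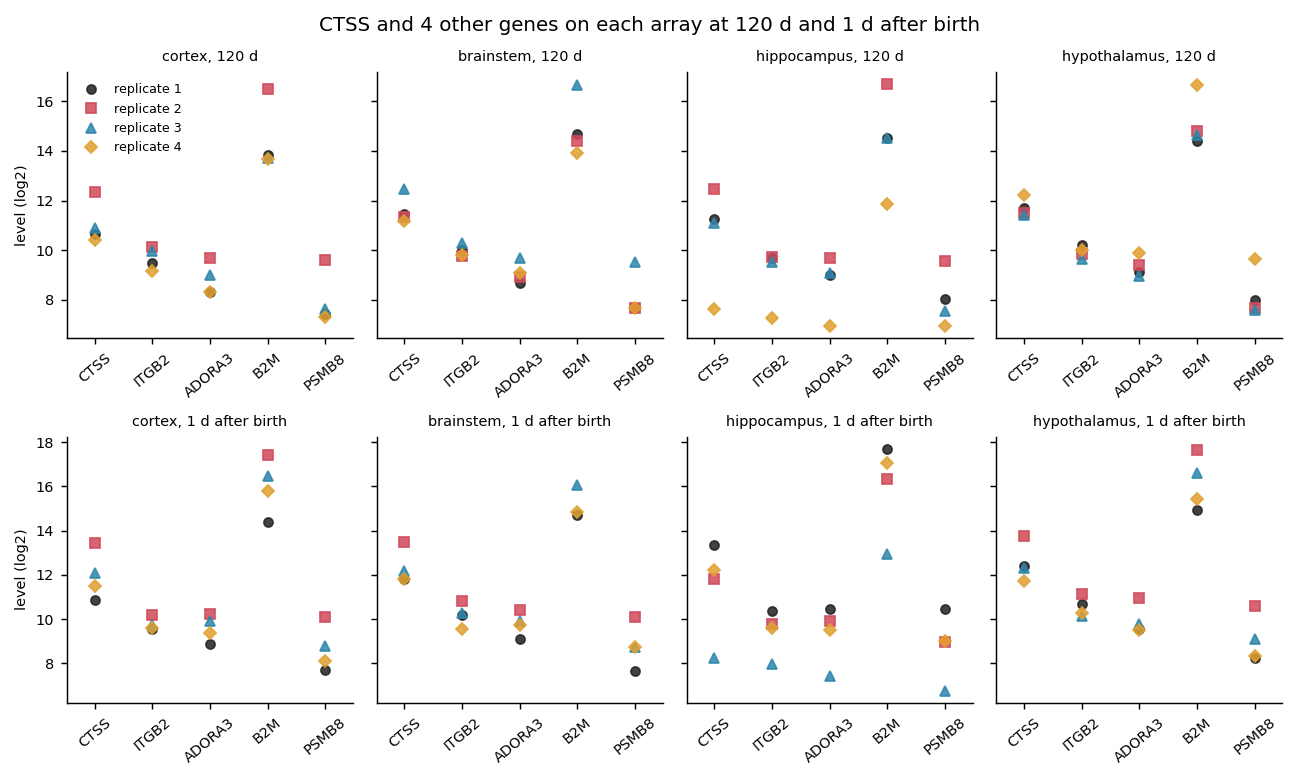
Levels (log2) of CTSS, ITGB2, ADORA3, B2M and PSMB8 on each array at 120 d and 1 d after birth in the 4 regions, with replicates marked by shape and colour; B2M is missing for brainstem replicate 2 in lambs, where its spot was left out. The array with the highest CTSS also has the highest ADORA3 and PSMB8 in all 8 panels.

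Over the 24 group means and among 977 other named genes, the patterns most like CTSS were those of ITGB2 (Pearson r = 0.89), ADORA3 (0.89) and B2M (0.88). Of those nearest to CTSB, RPA1 (0.82) is given, and for CTSD they were ALDOA (0.82), PSAP (0.81) and CKB (0.80). For CTSF they were a gene that the files describe as glyceraldehyde-3-phosphate dehydrogenase (0.87), MDH (0.85) and ECE1 (0.84), and for LGMN PTGDS (0.84), TUBA4A (0.83) and TF (0.82). Among the 5 genes themselves CTSD and CTSF were most alike (r = 0.81), followed by CTSB and CTSF (0.70), while CTSB gave -0.01 with CTSS and -0.08 with LGMN. These values describe means of the same arrays that share slides and ages.

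Markers of cell types were set beside the changes, since in tissue RNA fewer cells of a type and less RNA per cell cannot be told apart. Of 16 microglia markers 2 were named on the array, ITGAM and CD14. ITGAM lay near background, with region means of 6.72 to 7.03. It was well above background on 20 of 24 cortex and 15 of 23 hippocampus arrays. Of all genes, 20.2% rose to birth in cortex, 21.2% in brainstem and 8.35% in hypothalamus, and 5.43% were called in hippocampus. Both microglia markers were higher 1 d after birth than at 80 d in cortex, brainstem and hypothalamus, where CTSS rose as well, and neither passed in hippocampus. The log2 of their summed level ran from 8.01 to 8.27 at 80 d and from 8.34 to 9.66 in lambs in cortex, from 8.35 to 8.45 and 8.80 to 9.80 in brainstem, from 8.21 to 8.54 and 8.40 to 9.21 in hypothalamus, and from 8.34 to 8.79 and 8.64 to 9.23 in hippocampus. Oligodendrocyte markers moved with age too: 2 of 11 were named, CX32 and TF, and both rose in 4 of 4 regions, with a summed level in cortex of 8.83 to 9.56 at 80 d and 14.27 to 15.73 in lambs. Of 9 astrocyte markers 4 were named and 4 rose in cortex, 3 in hippocampus and 2 each in brainstem and hypothalamus, where 1 fell. Of 12 neuron markers 0 were named. Of 8 endothelial markers 4 were named, and 1 rose to birth in each of cortex, brainstem and hypothalamus. Of 9 erythroid markers 2 were named, of which 1 fell to birth in brainstem, and of 8 pituitary markers 5 were named, of which 1 fell in brainstem. Of 5 choroid plexus markers TTR alone was named, which ran from 7.17 to 18.49 over the arrays and was called in no region. The part of these cells in the changes of the 5 genes was not tested.

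Of 88 other lysosomal genes listed, 8 were found by name, and probes named by accession alone may hold others. In cortex 5 of the 8 rose from 80 d to birth, where 20.2% of all genes rose, and 0 fell. The median change of the 8 was 0.72 against -0.03 over all genes. The F test in cortex called 4 of the 8 (50%), near the 46.0% of all genes that it called. These were PSAP, the precursor of the saposins (1.05), LIPA, the lysosomal acid lipase (0.87), ATP6V0C, a subunit of the proton pump (0.87), and SMPD1, acid sphingomyelinase (0.77). SLC11A1, a metal transporter of phagosomes, passed in the contrast alone (0.67). The remaining HEXA, NPC2 and SLC17A5 ranged from 0.02 to 0.23 and did not pass. In cortex the 5 proteases changed by 0.63 to 2.56, so that 4 of them lay above the list's median.

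In brainstem the F test called 6 of the 8, where it called 40.5% of all genes. To birth 3 rose, HEXA (0.59), NPC2 (0.74) and SLC11A1 (0.79), where 21.2% of genes rose. There 1 fell, SLC17A5 (-0.72), where 21.4% fell. The median was 0.33 against 0.02 over all genes. In hypothalamus 2 rose, LIPA (0.54) and SMPD1 (0.70), where 8.35% of genes rose, and 0 fell. The F test called 0 of the 8 there, where it called 15.6% of genes, and the median was 0.44 against -0.02. In hippocampus none passed, where 5.43% of genes were called to birth, with a median of 0.19 against -0.01. Of the 11 inhibitors of these proteases listed, among them the cystatins, and of the 5 sorting receptors, 0 were named on the array. Of 7 regulators only PPARGC1A, a transcriptional coactivator, was named, and it fell in brainstem (-0.67, adjusted p = 0.00148). Of 8 genes of antigen processing 2 were named, PSMB8 and B2M. They rose to birth in cortex by 1.52 and 3.44 and in hypothalamus by 1.63 and 1.52, and in brainstem PSMB8 rose by 1.43 while B2M at 0.86 did not pass (adjusted p = 0.121).

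**Figure D5:**
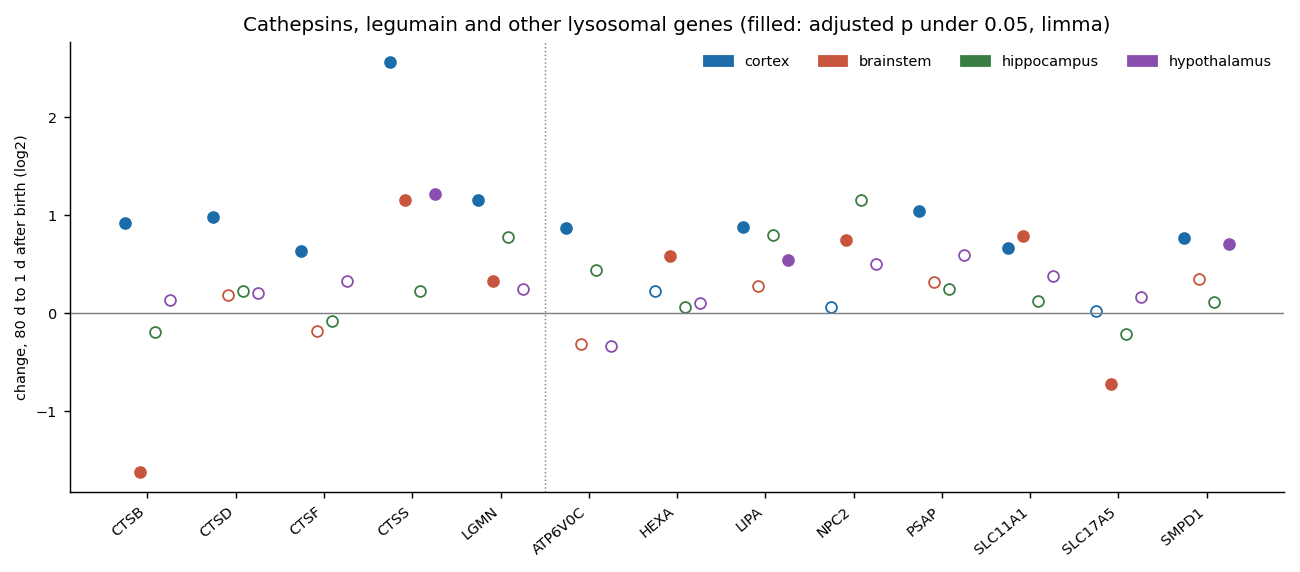
Change in level (log2) from 80 d to 1 d after birth of the 5 proteases (left of the dotted line) and of the 8 other lysosomal genes described, by region; filled points had an adjusted p under 0.05 (limma). In cortex all 5 proteases and 5 of the 8 other genes are filled and above 0, while points below 0 are filled only in brainstem, for CTSB and SLC17A5.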

How the data were processed

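The authors hybridized Cy3-labelled RNA to one-colour Agilent sheep arrays, and the deposited file of each array holds the mean and the local background intensity of every spot before normalization between arrays (Feature Extraction 10.1.1.1 per the file headers). A table of log2 values that the authors normalized was deposited for the whole series and served as an alternative.

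From the intensities, background was removed with normexp (offset 50) and values were quantile normalized over the 95 arrays (limma 3.58.1, R 4.3.3). The offset narrows changes of dim probes. Outlier-flagged and control spots were left out and probes of a gene averaged. A probe was kept in a region at 1.1 times the 95th percentile of 77 negative controls on at least 4 arrays, which left 12808 genes in cortex, 12865 in brainstem, 13047 in hippocampus, 13172 in hypothalamus and 13516 over all. Each region was fitted with lmFit and eBayes with 1 mean per age, and region tests used all arrays in 1 fit. P-values were adjusted over all genes (Benjamini-Hochberg) and called under 0.05. Signal over background and the number of arrays limit the precision: the lowest level well above background had a median of 6.48. Arrays of a group were compared with each other, and none repeated another. Tests were also tried on simulated data.

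Named genes are the 5 proteases, the 3 genes most like each over group means, the listed lysosomal, inhibitor, sorting and regulator genes with a probe (with values for those called by the F test in cortex), and marker genes. Lysosomal genes called otherwise, PSMB8, B2M, ADORA3 and ITGB2 on single arrays, and HBB and TTR there, were added after their values were seen. Some genes that this rule takes are not reported here and were left out of the list of lysosomal genes. The members and lists were chosen with earlier results of these data known. Symbols came from the files and the RefSeq table of assembly ARS-UI_Ramb_v3.0. Alternatives were an offset of 16, the scanner software's processed signal scaled by a 75th percentile, the authors' table, quantile normalization within regions, no filter, outlier spots kept, the brightest probe, the dim area left out, replicate or slide as a block, a trended and robust eBayes step, a stricter adjusted p (0.01), and each array left out. In the fits of a region, replicate number and slide each entered as a fixed factor. In the fit over all arrays, slide was a random block, and age with replicate number was a fixed factor. Single probes, hippocampus without slide 4 and the test of each pair of regions were added after seeing the data. Figures were drawn with matplotlib 3.10.9.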

Additional observations from a re-analysis of the deposited data

Results flagged for a closer look

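In groups of 4 arrays, 10 of 115 held an array whose gap to the nearest other, as a share of the group's range, was above Dixon's critical value, which chance alone passes in about 1 in 20 groups. For CTSB these were brainstem 130 d replicate 1 at 11.02 (the others at 10.37 to 10.45), brainstem 1 d after birth replicate 4 at 6.28, in the dim area of that array, and hippocampus 120 d replicate 4 at 9.16. For CTSD they were brainstem 80 d replicate 1 at 12.60 and hypothalamus 120 d replicate 1 at 12.61. For CTSF they were cortex 80 d replicate 4 at 9.54 and brainstem 120 d replicate 1 at 9.12, and for CTSS brainstem 145 d replicate 3 at 11.83. For LGMN they were hippocampus 80 d replicate 4 at 10.79 and hypothalamus 1 d after birth replicate 1 at 11.65. The change of CTSB from 80 d to 1 d after birth differed between the 4 regions, with an adjusted p of 0.0177 (limma), which was 0.0968 with the dim area left out and 0.0994 without brainstem 1 d after birth replicate 4, the array at 6.28.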

How the results depend on the processing

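In cortex 5 of 5 genes were called by the F test under every setting tried. Counts of genes called by the F test in brainstem (1) became 3 with the processed signal, 2 with the dim area left out and 0 at an adjusted p under 0.01. In hypothalamus the count (1) became 0 with the processed signal, 2 with slide as a block and 0 at an adjusted p under 0.01. The count for a difference between regions in the change to birth (1) became 0 with the dim area left out and 0 at an adjusted p under 0.01. Slide as a fixed factor within a region gave 3 calls from 145 d to birth (CTSS in brainstem and hypothalamus, CTSB in hypothalamus) and 1 between neighbouring ages, against 0 and 0. Slide as a random block over all arrays gave 3 of 30 for levels between regions, against 14. The shares of all genes called that are given above belong to the main fit. Counts under other settings have no such share beside them, so a general loss or gain of calls cannot be told from one in these genes. The mark for pairing was a correlation over 0.1 in every same-numbered pair of arrays of a pair of groups. Between regions it was met in 3 of 36 pairs of groups (median correlation 0.07, 56 of 141 pairs over 0.1). Between ages it was met in 6 of 60, of which 4 in cortex (median 0.11, 118 of 235 pairs). Same-numbered arrays thus did not deviate together throughout. The highest mean between regions was 0.35, for cortex with hypothalamus in lambs, where the mark was met. With the replicate number as a fixed factor within a region, 2 calls between neighbouring ages appeared (in cortex from 100 d to 120 d, CTSS with 1.21, adjusted p = 0.0283, and LGMN with 0.44, adjusted p = 0.0355). A number shared between ages does not mark a shared animal, since each age had its own animals. Over all arrays, with age and replicate number together as a fixed factor, CTSD differed between hippocampus and hypothalamus (0.29, adjusted p = 0.0472). The cause of these calls was not tested.

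Leaving out 1 array gave 5 to 5 calls by the F test in cortex, 1 to 2 in brainstem, 0 to 0 in hippocampus and 0 to 2 in hypothalamus, 4 to 6 from 80 d to 145 d (5 with all arrays), 7 to 10 to birth (9), 0 to 2 from 145 d to birth, 0 to 1 between neighbouring ages, 0 to 1 for the difference between regions and 14 to 16 for levels between regions. The 2 calls from 145 d to birth came without brainstem 1 d after birth replicate 1. The fall of CTSB in brainstem lost its call without each of the 4 arrays of 80 d (adjusted p 0.0581 to 0.0693), and the rise of LGMN there without 80 d replicate 4 (0.30, adjusted p = 0.0509) or replicate 2 of the lambs (0.25, adjusted p = 0.0694).

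Levels of LGMN turned direction from brainstem to hippocampus with the processed signal (0.26, adjusted p = 0.0364), and from brainstem to hypothalamus with the processed signal (0.32, adjusted p = 0.00804), the brightest probe (0.28, adjusted p = 0.00943) and probe 2 alone (0.28, adjusted p = 0.00937), against -0.04 and -0.06. CTSS from cortex to hippocampus turned from -0.13 to 0.54 without slide 4. The cause was not tested.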
